A study of Homo sapiens with 36 samples.

Results

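These results describe PCIF1 knockdown in BE(2)-C, a human neuroblastoma cell line, differentiated with all-trans retinoic acid (ATRA). They cover every methylated adenosine in the table for that comparison, 21031 sites of the 100897 listed for 3 cell contexts. The 6 libraries with values were 3 from cells that received siRNA against PCIF1 (siPcif1) and 3 from cells that received a scrambled siRNA (siScram), of 36 samples in the study. Each library was used as deposited and after its log2 values had been centred on their median. The same knockdown in BE(2)-C without ATRA, named DMSO in the deposited data, is used only for a comparison of the start-site difference.

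An mRNA that begins with adenosine can carry m6Am, a mark on that first nucleotide next to the cap that includes an N6-methyl group. PCIF1 is the enzyme that writes this N6-methyl group, and PCIF1 binds the transcribing RNA polymerase II. Internal m6A is written by a different complex built on METTL3 and METTL14, mostly in the DRACH sequence context, where D is A, G or T, R is A or G, and H is A, C or T. m6ACE maps both marks at single bases, by crosslinking an antibody to methylated adenosine and trimming the RNA up to it with an exonuclease. It reads the first transcribed adenosine as a site in a 5′UTR and cannot by itself tell m6Am from m6A.

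Both groups were wild-type BE(2)-C transfected with siRNA for 24 hours and then given 10 uM ATRA for 4 days, so ATRA is shared by both groups and differences between them do not measure its effect. ATRA drives neuroblastoma cells toward a neuron-like state. The line is 1 established clone, and nothing in the labels tells separate cultures from repeat preparations, so every p-value reflects spread among these libraries that may be technical. The labels name 1 siRNA reagent against PCIF1, so no second siRNA stands beside it. Markers of adrenergic neuroblastoma had sites in the table, among them CHGB (149 sites), HAND2 (84) and MYCN (82), while GATA3, TH and DDC had 1 each. A site needs methylation as well as RNA, so the number of sites is not a level of expression.

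The measured value is the relative methylation level (RML), a ratio given for each site and library. The sources used here give neither its formula nor the reads behind it, so depth is unknown. Library medians of RML were 2.36, 4.04 and 2.70 in siScram and 4.16, 3.43 and 2.76 in siPcif1, and the groups overlapped. The siRNA was not the main source of variation over all sites. The first principal component (35.4% of variance) did not separate the groups, with siScram replicate 1 and siPcif1 replicate 3 at its upper end, and the second (22.4%) did. siPcif1 libraries correlated at 0.862 to 0.892 with each other. siScram replicate 1 correlated best with siPcif1 replicate 3 (Pearson r = 0.908 over 21031 sites, which are not independent), above its correlations of 0.816 and 0.833 with the other siScram libraries. These 2 libraries also had the widest spread of log2 values, with interquartile ranges of 1.35 and 1.27 against 0.94 to 1.10 in the others. The labels were kept as given, and the cause of this likeness was not tested. The main start-site difference, the gene counts and the medians of the larger gene lists are also given without both.

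The table lists 2104 sites in 5′UTRs (10.0%), 12385 in coding sequence, 5338 in 3′UTRs, 402 in exons and 90 in introns of non-coding RNA, 172 in introns of coding genes and 540 with no annotation. Called start sites below are the 1976 sites in 5′UTRs whose motif is not DRACH, the class nearest to cap-adjacent m6Am, and internal sites are those in coding sequence and 3′UTRs. Of 1688 5′UTR sites whose gene had a start in the RefSeq table, 388 lay exactly at that base and 1130 within 100 nt of it. Many start sites are therefore not at the first base of that RefSeq transcript.

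Some adenosines at or next to gene starts are shown here because their values are described below. Each line gives 21 bases of the sense strand from RefSeq (GRCh38.p14) around the adenosine, 5′ to 3′. Capitals mark the 5-base motif the authors list, whose middle A is the methylated base. The first 8 had a lower and the last 3 a higher mean RML in siPcif1.
RET, chr10:43077059-43077079, plus strand: acctcgctTCAGTcccgcgac
PHOX2A, chr11:72244166-72244186, minus strand: ggctggctGCACTtgcgttgc
SCG3, chr15:51681493-51681513, plus strand: tctccgcgTCACAggaacttc
CRABP1, chr15:78340343-78340363, plus strand: gcaaagcgCCAGTctccgcct
SLC2A1, chr1:42958858-42958878, minus strand: gctctctgGCAAGaggcaaga
PFN1, chr17:4948520-4948540, minus strand: gggctgctGCACAgcgagcgg
RDH11, chr14:67695749-67695769, minus strand: aagagaagCCATAgtcggcga
DBF4B, chr17:44708655-44708675, plus strand: caggaaatTTAAActgaagcc
NUP205, chr7:135557907-135557927, plus strand: tccatgcgGCAGAagggctct
TBL3, chr16:1972045-1972065, plus strand: acgccatcGCAGCgcgccggg
PDHB, chr3:58433822-58433842, minus strand: gtcgtttgGCAGCggatagag
The RET, PHOX2A, SCG3, CRABP1, SLC2A1, PFN1, DBF4B, NUP205 and PDHB adenosines lie at the RefSeq gene start itself, that of TBL3 2 nt and that of RDH11 5 nt downstream of it. A cytosine precedes the methylated adenosine in all of them except DBF4B, which has T before it.

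PCIF1, the knocked-down gene, could not be checked as a target, because RML is not an RNA level. Its 1 site, in coding sequence at position 45947699 of chromosome 20 (hg38), had RML of 4.03, 4.55 and 3.91 in siScram and 5.90, 3.60 and 4.88 in siPcif1. The groups overlapped, and the centred log2 difference was -0.0067 with limma adjusted p = 1.00. METTL3, FTO and PCF11, which the naming rule also listed, had no site in this table.

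Start sites were lower in siPcif1 relative to internal sites of the same libraries. Their median log2 level stood above that of internal DRACH sites by 0.66, 0.90 and 0.74 in the siScram libraries and by 0.52, 0.49 and 0.56 in the siPcif1 libraries. All 3 siPcif1 libraries lay below all 3 siScram libraries. The siScram mean was 0.77 ± 0.12 (SD, n = 3) and the siPcif1 mean 0.53 ± 0.033 (SD, n = 3), so that the log2 difference was -0.24 ± 0.07 (SE), a level 1.18-fold lower. An exact two-sided permutation test over the 20 arrangements of 6 libraries gave p = 0.1, the smallest it can give, and 0.425 after Benjamini-Hochberg adjustment over 17 site classes. The difference was -0.31 without siScram replicate 1 and siPcif1 replicate 3.

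Other classes moved less or with overlapping libraries. The 128 sites of 5′UTRs that do match DRACH differed by -0.07 and their groups overlapped. Coding and 3′UTR sites without DRACH differed by 0.03 ± 0.22 and 0.06 ± 0.16 (SE), again with overlap. The excess of all 5′UTR sites over all internal sites was 1.27, 1.07 and 0.97 in siScram and 0.79, 0.76 and 1.02 in siPcif1, which is -0.24 with exact permutation p = 0.2, and siPcif1 replicate 3 lay inside the siScram range. As deposited, the median log2 difference over all sites was 0.12, and centring moved it to -0.03. The median start site was at -0.08 as deposited and -0.24 after centring.

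**Figure D1:**
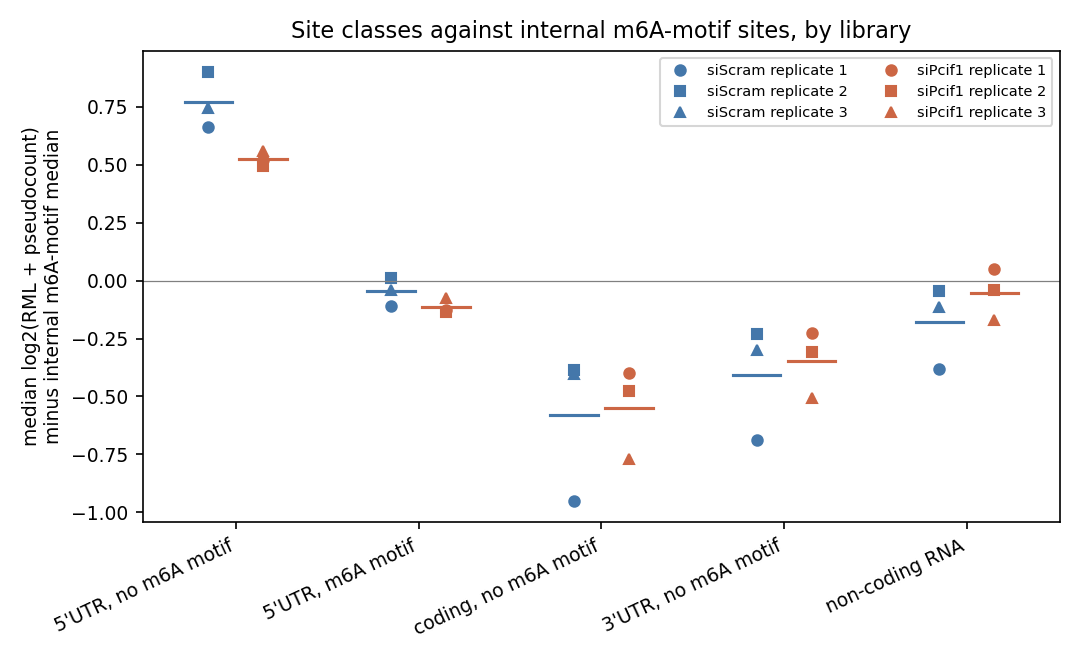
Median log2(RML + pseudocount) of 5 site classes minus the median of internal DRACH sites (the m6A motif), for each of 3 siScram and 3 siPcif1 libraries, with group means as bars. For 5′UTR sites without the motif the siPcif1 libraries (0.49 to 0.56) all lie below the siScram libraries (0.66 to 0.90), and in the other 4 classes the groups overlap.

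Site by site the same class stood out by count. After centring, the 3 libraries of one group lay entirely below or above those of the other at 8.06% of all sites with siPcif1 the lower group and at 3.49% with siPcif1 the higher. Among start sites these shares were 20.9% and 2.38%, and 75.8% of start sites had a negative difference. Among coding DRACH sites they were 6.42% and 2.84%, close to the shares over all sites. The 540 unannotated sites had 12.2% and 3.15%.

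Start sites were split by the base before the adenosine. That base belongs to the promoter only where the adenosine is the first base of its transcript. The 1289 start sites after a C differed from internal DRACH sites by -0.26 (0.89, 1.11 and 0.96 in siScram, 0.71, 0.71 and 0.76 in siPcif1). The 355 after a T differed by -0.21. Both had libraries that did not overlap. The 240 after a G differed by -0.17 and the 92 after an A by 0.07, and in both the groups overlapped. By site, the libraries were apart downward at 22.6% after a C, 16.9% after a T and 24.2% after a G, but at 3.26% after an A. The upward shares were 2.02%, 3.10%, 2.08% and 5.43% in the same order. These classes also differed in level, since sites after a C or T stood 0.98 and 0.80 above internal DRACH sites in siScram, and those after a G or A at -0.0071 and -0.13. Differences between the preceding bases were not tested.

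In coding sequence the same base context had a difference near 0, with a wider spread among libraries. The 1189 5′UTR sites in the context BCA (B is C, G or T) differed by -0.26 ± 0.07 (SE), without overlap. The 3091 coding sites in BCA differed by 0.02 ± 0.18 (SE), and siScram replicate 1 (-0.96) and siPcif1 replicate 3 (-0.78) were the lowest libraries there. Among start-site pentamers with at least 30 sites, the median centred differences ran from -0.53 for TCACT (31 sites) and -0.45 for CCAGT and GCAGT (65 and 90 sites) to -0.18 for GCAGA (83 sites). All 13 such pentamers had a negative median.

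Start sites were placed by their distance from the RefSeq gene start. At the start base itself, 398 sites without DRACH in any region stood 1.54, 1.76 and 1.59 above internal DRACH sites in siScram and 1.30, 1.24 and 1.34 in siPcif1. The groups did not overlap and differed by -0.34. The 241 sites 1 to 10 nt downstream differed by -0.29, also without overlap. The 43 sites 1 to 10 nt upstream and the 83 sites 11 to 49 nt upstream differed by -0.27 and -0.26, without overlap, and the 97 sites farther upstream by -0.07 with overlap.
From 11 nt downstream the groups overlapped in every bin. The difference was -0.18 for 320 sites up to 50 nt and -0.40 for 75 sites between that and 100 nt. It was -0.03 for 402 sites over 100 and up to 500 nt, and 0.05 for the 10777 sites beyond. By site, the libraries were apart downward at 25.9% and 25.3% of sites in the bins up to 50 and 100 nt, about as often as at the start base (23.9%), and at 12.9% and 6.73% farther in. The exact permutation p was 0.1 for each bin without overlap, and the bins were not compared with each other. Neighbouring sites can come from the same transcripts.

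**Figure D2:**
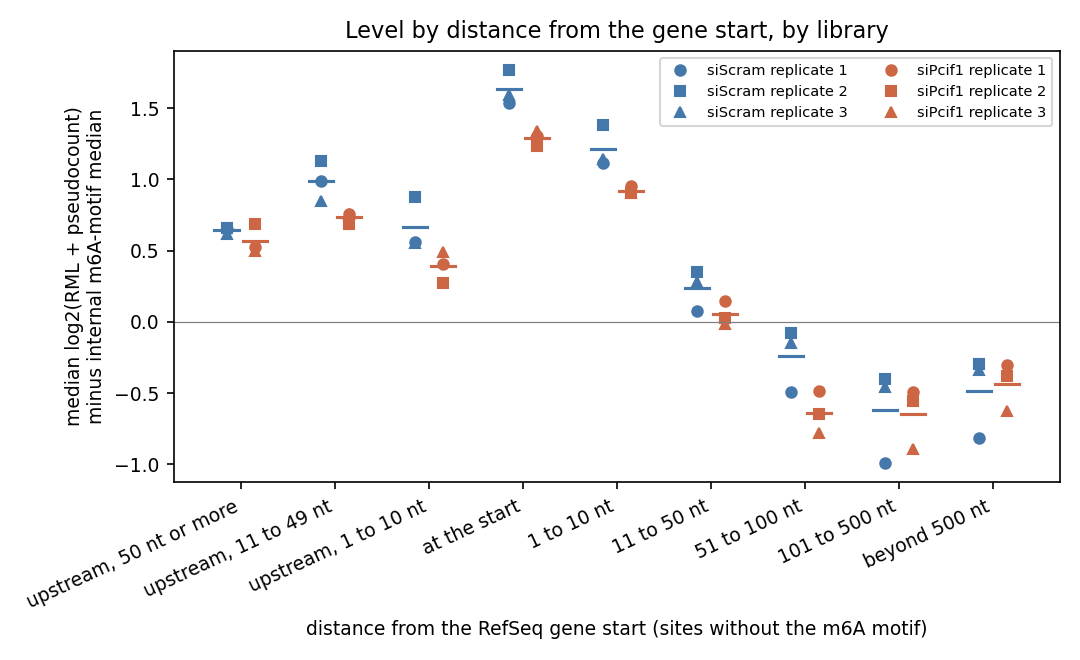
Median log2(RML + pseudocount) of sites without a DRACH motif minus the internal DRACH median, by distance from the RefSeq gene start, for each library, with group means as bars. The level peaks at the start base, where the siPcif1 libraries (1.24 to 1.34) lie below the siScram libraries (1.54 to 1.76), and the groups overlap beyond 10 nt downstream.

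Start sites were also high sites, so the change was set beside internal sites of the same level group. All sites were ranked by mean log2 level into 10 groups of equal size. In the highest, 950 start sites had a median centred difference of -0.32 and 940 internal sites 0.02, but levels there were not alike, with a median RML of 15.5 for the start sites and 9.53 for the internal ones. In the lowest, 50 start sites had -0.17 and 1896 internal sites -0.10. Start sites had a median below that of internal sites in each of the 10 level groups.

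**Figure D3:**
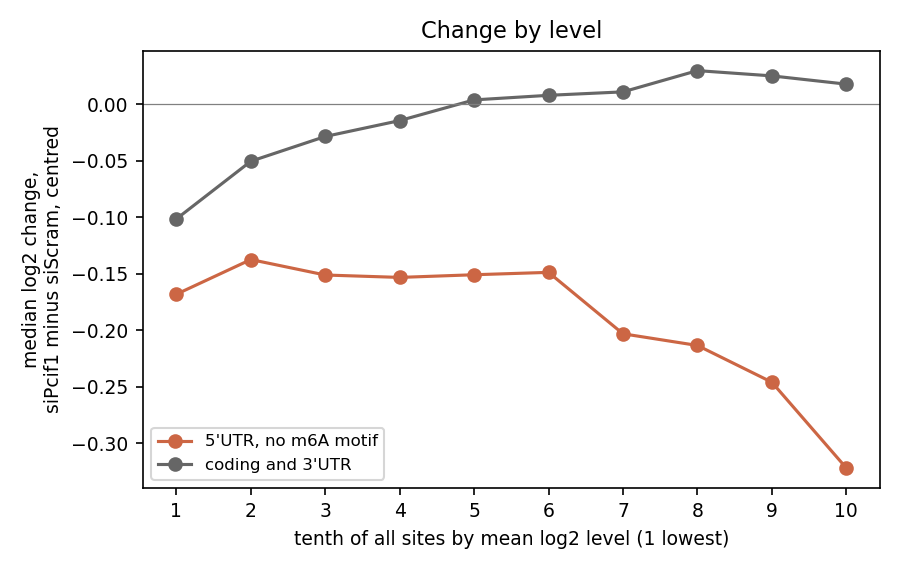
Median centred log2 difference (siPcif1 minus siScram) of 5′UTR sites without the m6A motif and of coding and 3′UTR sites, in 10 groups of equal size by mean level. The start-site medians run from -0.14 to -0.32, and the internal medians from -0.10 to 0.03.

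A site is listed only where the authors called it in at least 1 group, so the list itself depends on both groups. By the calls of the authors' deposited table, 41.3% of all sites were called in both groups, 18.3% in siScram only and 40.4% in siPcif1 only. Of start sites, 51.9% were called in both, 21.9% in siScram only and 26.2% in siPcif1 only. The start-site difference varied with this class, and the comparison was added after the data had been seen. The 1026 start sites called in both groups stood 0.95, 1.23 and 1.06 above the 1872 internal DRACH sites called in both in siScram, and 0.88, 0.83 and 0.84 in siPcif1. The groups did not overlap, with a difference of -0.23 (exact permutation p = 0.1). Over sites called in siScram only, which had to be high there, the difference was -0.42 (433 start sites, exact permutation p = 0.1). Over sites called in siPcif1 only it was -0.07 with overlapping groups (517 start sites, exact permutation p = 0.5).

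No single site passed the test. limma on log2(RML + 0.857) gave 0 of 21031 sites at an adjusted p of 0.05 in both scalings (0%), with a smallest limma adjusted p of 0.392 as deposited and 0.322 after centring. Before adjustment, limma p was under 0.05 at 177 sites with lower RML (0.842%) and 427 with higher RML (2.03%) on the deposited scale. After centring these were 899 (4.27%) and 361 (1.72%). Start sites made up 311 of the 899 and 24 of the 361. In simulated data of the same size, limma recovered 80% of sites changed by 2 on the log2 scale after centring, and 25% of those changed by 1. On the deposited scale these were 55% and 2%. False calls numbered 8 after centring and 2 as deposited. The simulated noise was independent between libraries and its spread was shuffled among sites, so these rates need not hold for the real libraries.

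A set of sites was named by a rule, and each value here describes it. The rule kept sites with a gene name, a level above the median and groups that did not overlap in both scalings, which left 206 lower and 209 higher sites. Of the lower sites 71.4% lay in 5′UTRs and of the higher sites 11%, where 5′UTR sites were 15.9% of the 10239 that could qualify. The 10 largest decreases, 1 site a gene, all lay in 5′UTRs. Several of them are far from the start in the RefSeq table, which holds 1 start a gene: that of MAP2 is at -237449 nt (upstream of it), and those of ATF3, DDR2, MIDN and BASP1 lie 43354, 1602, 1305 and 808 nt downstream.

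MAP2, a microtubule-associated protein of dendrites, had RML of 69.8, 102 and 27.0 in siScram and 12.4, 7.72 and 16.6 in siPcif1 at position 209424047 of chromosome 2 (hg38). Every siPcif1 library was below every siScram library, with a centred log2 difference of -2.38 ± 0.52 (SE; limma adjusted p = 0.444). The 20 internal sites of MAP2 had a median difference of -0.03 and a range of -0.50 to 0.36.
RDH11, a retinol dehydrogenase that reduces retinal, had 27.5, 20.5 and 14.4 in siScram and 8.15, 5.15 and 5.53 in siPcif1, and its groups were apart. The difference was -1.74 ± 0.35 (SE; limma adjusted p = 0.383), against 0.07 at the median of its 3 internal sites.
HMOX1, heme oxygenase, had 34.5, 29.0 and 27.0 in siScram and 7.47, 10.3 and 11.1 in siPcif1. It was the most even of the 10 in siScram, with an SD of 3.92 around a mean of 30.2.
DBF4B, a regulatory subunit of the CDC7 kinase, had 13.96, 25.04 and 20.9 in siScram and 7.47, 7.21 and 3.68 in siPcif1. Its difference of -1.75 ± 0.30 had the smallest limma adjusted p of the 10, at 0.322.

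The other 6 of these sites were in MIDN, DDR2, SMIM4, BASP1, ATF3 and POLB. Their centred differences ran from -3.16 for MIDN to -1.85 for POLB, the gene of DNA polymerase beta. Leaving out 1 library moved 3 of them by over 1.5 times in fold, MIDN to -2.13 without siPcif1 replicate 1, and BASP1 to -1.23 and DDR2 to -1.67 without siScram replicate 3. In several of them 1 siScram library was far above the rest. BASP1, a growth-cone membrane protein, had 32.1, 31.3 and 165 in siScram and 11.8, 16.7 and 14.1 in siPcif1. The other BASP1 start sites were at -0.11 and -0.03 after centring. DDR2, a collagen receptor, had 13.5, 13.7 and 68.7 against 4.48, 3.31 and 4.42. ATF3, a stress-response transcription factor, had 14.8, 17.8 and 47.7 against 6.40, 4.63 and 6.91. In the named sites of BASP1, DDR2 and ATF3 siScram replicate 3 was the high library, and the other siScram libraries still lay above all siPcif1 libraries.

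Of the 8 largest increases, 4 lay in 5′UTRs. NUP205, a nuclear pore scaffold protein, had RML of 14.8, 6.83 and 4.72 in siScram and 67.2, 46.3 and 26.2 in siPcif1 at its start base. The groups were apart, with a difference of 2.18 ± 0.49 (SE; limma adjusted p = 0.444). TBL3, a WD-repeat protein of the small-subunit processome, had 5.92, 9.39 and 8.54 in siScram and 44.8, 56.6 and 19.3 in siPcif1, a difference of 1.96 ± 0.39 (limma adjusted p = 0.383). PLEKHB2 and CPT1C were the other 5′UTR sites, with differences of 1.77 (2.41 without siPcif1 replicate 3) and 1.30. RAP1GAP2 (2.12, or 2.77 without siScram replicate 2, intron), ERLIN2 (1.39, coding), TTC4 (1.37, 3′UTR) and MRPL35 (1.36, 3′UTR) lay elsewhere. NUP205, TBL3, CPT1C, TTC4 and MRPL35 had 1 site each in the table.

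**Figure D4:**
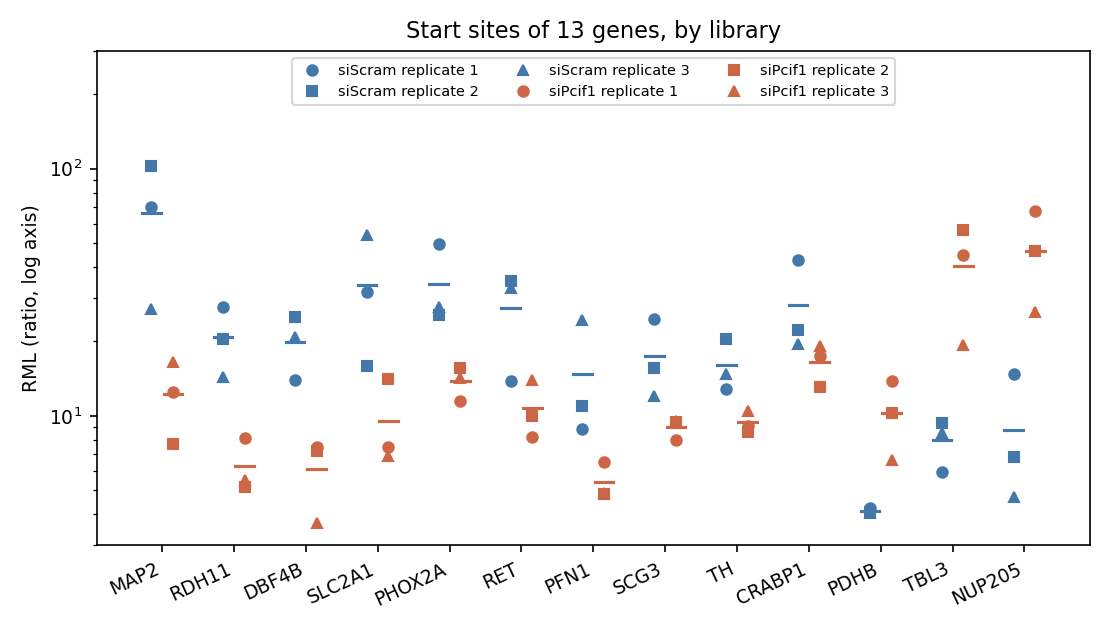
RML on a log axis at the start sites of 13 genes for each library, with group means as bars. The genes are among those described in the text and several were chosen for their difference. In 10 genes the siPcif1 means lie below the siScram means, with the libraries touching in RET (14.03 against 13.86), and in PDHB, TBL3 and NUP205 all siPcif1 libraries lie above all siScram libraries.

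Per gene, start sites were lower in most genes and no gene passed the test. The value of a gene was the mean over its start sites minus the internal DRACH median of each library, for 1234 genes, of which 874 had 1 start site. The median difference was -0.27 and 76.2% of genes were negative. limma called 0 genes at an adjusted p of 0.05, with a smallest limma adjusted p of 0.0733. At an unadjusted p of 0.05, 205 genes were lower (16.6%) and 18 higher (1.46%), and the libraries were apart in 22.8% of genes downward and 2.19% upward. Without siScram replicate 1 and siPcif1 replicate 3 there were 161 lower and 15 higher, and 961 of 1234 genes were negative, against 940 with all libraries.

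Set against internal sites of the same transcript, the start sites were still lower. Over 600 genes with both, the median difference was -0.23, and the libraries were apart downward in 15.5% and upward in 1%. limma called 0 genes, and before adjustment 65 (10.8%) passed 0.05 downward and 6 (1%) upward. Internal sites make up most of the table, so centring by itself holds their median near 0. Over 1555 genes with 3 or more internal sites, a test added after the data had been seen, the median was -0.0040. Before adjustment 57 (3.67%) passed 0.05 downward and 49 (3.15%) upward, and 0 were called. In simulated data limma recovered 44% of start-site genes changed by 1 and 95% of internal genes changed by 1. The noise there was again independent between libraries with its spread shuffled among genes, so these rates need not hold for the real libraries.

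**Figure D5:**
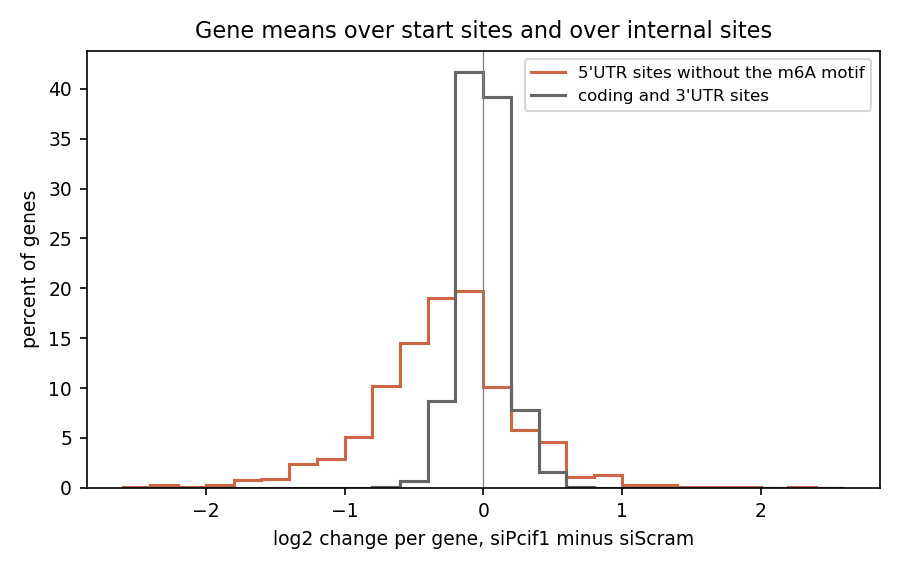
Percent of genes by log2 difference (siPcif1 minus siScram, bins of 0.2) for gene means over start sites (1234 genes) and over 3 or more internal sites (1555 genes). The start-site distribution is wider and centred at -0.27, and the internal one is centred near 0. Start-site values are relative to the internal DRACH median, and 874 of the 1234 rest on 1 site. Internal values are relative to the median of all sites and average 3 or more sites, so the widths are not like measures.

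TFG, ASNS, RDH11, AKAP8L, TXNRD1 and CAPNS1 had the 6 smallest p-values of the start-site test, a choice made after the values were seen. TFG, which organises export from the endoplasmic reticulum, had 1 start site with RML of 6.93, 7.62 and 2.94 in siScram and 1.14, 1.63 and 1.05 in siPcif1. Its difference was -1.71 ± 0.26 (SE; limma adjusted p = 0.0733). ASNS, asparagine synthetase, had 2 start sites 19 nt apart. The one at the RefSeq start had 7.73, 11.1 and 7.65 in siScram and 3.91, 3.34 and 3.48 in siPcif1, and the one upstream of it 3.34, 5.46 and 3.47 against 1.30, 1.40 and 1.78. The groups were apart at both, and the gene value differed by -1.21 ± 0.19 (limma adjusted p = 0.0733). TXNRD1, a thioredoxin reductase, differed by -1.33 ± 0.24 over 2 sites (limma adjusted p = 0.0853).

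Adrenergic neuroblastoma genes had start values for 13 of 28 listed genes, of which 11 were negative, with a median of -0.35 beside -0.27 and 76.2% negative over all 1234 genes. Without both similar libraries the order of the medians turned, to -0.28 for the list and -0.33 over all genes. At an unadjusted p of 0.05, 4 were lower and 0 higher, beside 16.6% and 1.46% of all start genes, and 0 passed the adjusted test. PHOX2A, a homeodomain factor of noradrenergic identity, had RML of 49.5, 25.6 and 27.6 in siScram and 11.5, 15.6 and 14.3 in siPcif1 at its start base. The groups were apart, with a gene difference of -1.34 ± 0.39 (SE; limma adjusted p = 0.158).
RET, the receptor tyrosine kinase for GDNF-family ligands, had 13.86, 35.0 and 32.9 in siScram and 8.18, 10.01 and 14.03 in siPcif1. As deposited siPcif1 replicate 3 was barely above siScram replicate 1, and relative to internal DRACH sites the groups were apart with a difference of -1.34 ± 0.44 (limma adjusted p = 0.195). The median of 30 internal RET sites was -0.08.
SCG3, a secretory granule protein, had 24.7, 15.6 and 12.01 against 7.98, 9.44 and 9.52. TH, the rate-limiting enzyme of catecholamine synthesis, had 12.8, 20.5 and 14.7 against 9.10, 8.64 and 10.48. Both had groups apart, with differences of -0.97 and -0.83.

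The other adrenergic genes stood between -0.68 and 0.19. GATA2, a transcription factor of the adrenergic core circuit, had 24.8, 21.1 and 13.8 against 16.0, 12.3 and 11.1 at a site 1 nt from its start, a gene difference of -0.68. DBH, which converts dopamine to noradrenaline, differed by -0.61 at its start base and by 0.005 at a site 29 nt upstream. MYCN, the amplified driver oncogene of this tumour type, had 3 start sites with differences of -0.42 at the start base, -0.08 and 0.29 upstream of it. Its gene value was -0.04, and the median of its 79 internal sites was -0.01. HAND2 had 25 start sites over 922 nt, from -0.79 at the start base to 0.22, with a median of -0.06. DDC, the decarboxylase that makes dopamine, was at 0.19 and HAND1 at 0.06. Positions within these genes were compared after their values were seen.

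Neurite and cytoskeleton genes had start values for 29 of 63 listed genes, 27 of them negative with a median of -0.36, beside 76.2% and -0.27 over all start genes. Without both similar libraries 27 were negative and the medians were -0.46 and -0.33. At an unadjusted p of 0.05, 5 were lower and 0 higher, a share close to the 16.6% over all start genes. Besides MAP2 the 5 were NEFM, PFN1, NCAM1 and TUBA1A. PFN1, profilin, which feeds actin monomers to filaments, had RML of 8.88, 10.9 and 24.5 in siScram and 6.53, 4.82 and 4.89 in siPcif1 at its start base. TUBA1A, the main alpha-tubulin of young neurons, had 9.85, 12.2 and 8.30 against 7.34, 5.65 and 6.34. Its difference of -0.71 ± 0.22 (SE; limma adjusted p = 0.18) came from even libraries, with an SD of 0.04 in siScram on the log2 scale. NCAM1, a neural adhesion molecule, differed by -0.80 over 2 adjacent sites, and NEFM, a neurofilament subunit, by -1.39 with overlapping groups.
Several other members were also below 0, among them TUBA1B at -0.62 and STMN2 at -0.48, both with groups apart. MAP1B was at -0.62 with overlapping groups. Some members were near 0. GAP43, a growth-cone protein, was at -0.04 over 7 sites. STMN1 was at -0.15 and TUBB at -0.02, and 7 of 8 TUBB start sites lie on alternate copies of chromosome 6, where reads of one locus can be split. KIF5A, a neuronal kinesin, was the highest at 0.85, and its groups overlapped.

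Retinoic acid response genes had start values for 6 of 48, 4 of them negative with a median of -0.55, where 76.2% were negative and the median was -0.27 over all start genes. At an unadjusted p of 0.05, TGM2 and CRABP2 were lower and 0 higher, beside 16.6% and 1.46% over all start genes, and 6 genes are too few to set against these shares. CRABP2, which delivers retinoic acid to its nuclear receptor, had RML of 14.4, 23.1 and 16.6 in siScram and 10.8, 10.99 and 11.2 in siPcif1, a gene difference of -0.78 ± 0.30 (SE; limma adjusted p = 0.233). CRABP1, a cytosolic retinoic acid binder, had 42.9, 22.1 and 19.5 against 17.4, 13.1 and 19.1, a difference of -0.80. CYP26A1, the retinoic acid hydroxylase, and RARA, a retinoic acid receptor, were at 0.09 and 0.32. The RARA site named by the rule was higher in each siPcif1 library (7.84, 7.16 and 5.17) than in any siScram library (2.16, 4.68 and 3.24).

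Glycolysis genes had start values for 12 of 31, 11 of them negative with a median of -0.34, and -0.48 without both similar libraries, beside -0.27 and -0.33 over all start genes. Before adjustment 4 passed 0.05 downward (SLC2A1, ENO2, PKM and PGK1) and 1 upward (PDHB), beside 16.6% and 1.46% of all start genes. SLC2A1, the glucose transporter GLUT1, had RML of 31.7, 15.9 and 53.9 in siScram and 7.47, 14.2 and 6.91 in siPcif1, a difference of -1.78 ± 0.54 (SE; limma adjusted p = 0.176). PKM, pyruvate kinase, had 2 start sites 10 nt apart, with 7.63, 9.71 and 6.69 against 5.97, 5.11 and 4.85 at the higher one. Its difference was -0.65 ± 0.18 (limma adjusted p = 0.142). PDHB, a pyruvate dehydrogenase subunit, ran the other way with 4.23, 4.10 and 4.04 against 13.9, 10.3 and 6.63, a difference of 0.97 ± 0.26 (limma adjusted p = 0.128). GAPDH was at -0.10 over 2 start sites that differed in sign, 0.83 and -1.09 after centring. Of all 87 glycolysis sites the libraries were apart downward at 23.0%, beside 8.06% over all sites. However, 21 of the 87 were start sites, a class apart downward at 20.9%, so the share over all sites is not a like base. The 65 internal glycolysis sites had a median centred difference of -0.11, beside -0.02 over all 17723 internal sites. This median was -0.10 for translation factors and 0.04 for m6A and m6Am machinery. How far start sites account for the glycolysis share was not tested. Among the 9 lists this share ran from 2.38% for m6A and m6Am machinery to 23.0% for glycolysis, with 15.1% for translation factors.

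Translation factors had 14 of 16 negative start values and a median of -0.23, less negative than the -0.27 over all start genes. Before adjustment 3 passed 0.05 downward and 1 upward, a downward share near the 16.6% over all start genes. EIF3K, a subunit of the initiation factor eIF3, was lowest at -1.30 (limma adjusted p = 0.124), and EIF5A, which relieves stalled ribosomes, was highest at 1.59 (limma adjusted p = 0.196). Ribosomal protein genes, whose mRNAs begin with a pyrimidine tract, had 21 of 26 negative, a median of -0.14 and 0 in either direction at an unadjusted p of 0.05. The medians without both similar libraries were -0.34 for translation factors and -0.22 for ribosomal proteins, beside -0.33 over all start genes. Ribosomal protein genes ranged from -0.57 for RPS9 to 0.23 for RPL23A. Ribosomal protein, GAPDH, tubulin and EIF5A transcripts have near-identical paralogs or processed pseudogenes, and how reads were shared among copies is not known. limma called 0 genes of any list at an adjusted p of 0.05.

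Lists of the RNA machinery had few start sites. Of m6A and m6Am machinery genes 3 of 30 had a start value, -0.42 for HNRNPC, -0.16 for HNRNPA2B1 and 0.01 for TRMT112. The internal sites of WTAP and YTHDF3, named by the rule for their small p in this list, were higher in siPcif1. Over all 84 sites of the list the libraries were apart upward at 4.76% and downward at 2.38%, beside 3.49% and 8.06% over all sites. WTAP, which tethers the METTL3 complex, had RML of 0.81, 1.71 and 1.65 in siScram and 5.27, 3.43 and 2.28 in siPcif1, a difference of 0.82 ± 0.20 (SE; limma adjusted p = 0.486). All siPcif1 libraries were above all siScram libraries there. The gene value over 16 internal WTAP sites was 0.15.
Of 54 cleavage, polyadenylation and termination genes 5 had a start value, 2 of them negative, with a median of 0.11 and 0 at an unadjusted p of 0.05. WDR33, the subunit that recognises the polyadenylation signal, had a coding site with 2.75, 5.12 and 4.81 in siScram and 7.88, 7.92 and 7.98 in siPcif1. Its groups were apart, with a difference of 0.67 ± 0.25 (limma adjusted p = 0.737). Of the mesenchymal markers VIM and IL6ST had start values of -0.62 and -0.54, both with overlapping groups. Only 3 of the 35 listed mesenchymal genes had any site.

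Genes with the most sites had values close to the median of all sites. CHGB and SCG2, secretory granule proteins, had 149 and 147 sites with median centred differences of 0.01 and 0.03. NFE2L1, a transcription factor of proteasome genes, had 139 sites at -0.02 and MAP1B, a microtubule protein, 93 at 0.02. TUBB was lower at 124 of 136 sites with a median of -0.13, and 118 of those sites lie on alternate contigs. Over 370 genes with both values, start-site and internal differences correlated with Pearson r = 0.13, a description over genes that share libraries.

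Non-coding RNAs varied in direction. The 402 exonic sites differed from internal DRACH sites by 0.13 and the 90 intronic ones by 0.18, with overlapping libraries. Of the intronic sites the libraries were apart upward at 14.4% and downward at 3.33%, beside 3.49% and 8.06% over all sites. NEAT1, the scaffold RNA of paraspeckles, had library medians after centring of -0.48, -0.67 and -0.38 in siScram and -0.17, 0.01 and -0.28 in siPcif1 over 12 sites. MALAT1, an RNA of nuclear speckles, had -0.31, -0.42 and -0.12 against 0.01, 0.24 and -0.06 over 20 sites. In both, all siPcif1 libraries were above all siScram libraries, a comparison made after the values were seen and not tested. Others ran the opposite way. RNA45S5, the ribosomal RNA precursor, was lower at all of its 18 sites with a median of -0.18 and libraries apart, all on alternate contigs, and GATA2-AS1 was at -0.24 over 13 sites with overlap. CASC15 held 6 of the 13 intronic sites with siPcif1 the higher group, and MIR137HG 3. By the calls of the authors' deposited table, 57.0% of the exonic and 70.0% of the intronic non-coding sites were called in siPcif1 only, against 40.4% of all sites. Their part in this result was not tested.
NORAD, a long non-coding RNA that binds PUMILIO proteins, was 1 of 6 non-coding genes with a site near the RefSeq start, and had RML of 86.7, 58.0 and 28.3 in siScram and 21.2, 19.7 and 22.5 in siPcif1. The groups were apart with a centred difference of -1.43, while the median over all 20 NORAD sites was -0.0002. The other 5 sites had overlapping groups, with differences of -0.78 for LINC00998, -0.22 for SVIL-AS1, -0.15 for MIR4458HG, 0.04 for OIP5-AS1 and 0.22 for MEG3.

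The start-site difference was compared with that of BE(2)-C without ATRA, named DMSO in the deposited data, whose 6 libraries are separate. Each table has its own list of sites, and over these lists the shift was -0.24 with ATRA and -0.23 without. Their difference was -0.02, with exact permutation p = 0.885 over 400 relabelings, and its sign turned under 2 alternatives. The alternative over the 7800 sites listed in both tables had shifts of -0.25 with ATRA and -0.28 without. Over 893 genes with start values in both tables, 68.2% were negative without ATRA, and the medians were -0.25 with and -0.16 without. Of the 113 genes lower at an unadjusted p of 0.05 with ATRA, 74.3% were negative without it, and their median there was -0.23, where the -0.84 with ATRA is fixed by the choice of genes. Of the 7 genes higher at that p with ATRA, 71.4% were also negative without it. POLB was at -1.82 with ATRA and -1.32 without, and its groups were apart in both tables. PHOX2A was at -1.34 and -0.55, PFN1 at -1.33 and -0.31, and DBF4B at -1.72 and -0.78, with overlapping groups without ATRA. SLC2A1 (-1.78 and 0.37), SCG3 (-0.97 and 0.22) and CRABP1 (-0.80 and 0.20) had opposite signs in the 2 tables, as did TBL3 (1.98 and -0.57). Differences between the tables for single genes were not tested.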

How the data were processed

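Values came from m6ACE libraries of 2 groups of 3, BE(2)-C with ATRA and siScram or siPcif1, and the 6 input libraries of these groups have no column of their own. Per the file headers the authors deposited a ratio (RML) for each library, group mean ratios, a log2 fold change with its p-value, and a DESeq2 p-value per group. The deposited log2 values were not used as results, and of the deposited p-values the ones per group gave the call shares and those of the fold change an alternative. The submitters' processing notes name hg38 and, without roles, STAR, Bowtie2, cutadapt 3.7, bcl2fastq 2.20 and the authors' DESeq2. 

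RML was analysed as log2(RML + 0.857), the pseudocount being the 5th percentile of all values, a scale that understates changes of low sites. limma 3.58.1 (R 4.3.3, lmFit and eBayes with a variance trend) was adjusted by Benjamini-Hochberg over all features at 0.05. Class medians per library were compared by exact two-sided permutation (Python 3.11.15). Gene starts and sequences came from RefSeq tables of GRCh38.p14, and 20246 of 20491 annotated sites matched a symbol. At 1095 of 1095 sites inside a RefSeq window its 5 bases equalled the listed motif.

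The members and the 9 gene lists were chosen with earlier results of these data known. Named sites had a gene name, a mean above the median and groups apart in both scalings. The 10 largest decreases and 8 largest increases by centred difference were taken, 1 site a gene. Added were the site with the smallest unadjusted p of PCIF1, METTL3, FTO, PCF11, MYCN, RET and MAP2, and of 2 genes of each list. Some items are not reported here. Genes outside this rule are those of the lists, or are said to be chosen after their values were seen. Replicate numbers did not pair the libraries, since deviations of same-numbered libraries correlated at -0.31, 0.06 and -0.26. The code was tested on simulated data. Alternatives were other pseudocounts, a filter on low RML, no variance trend, another centring, the deposited p-values, the replicate number as a block and leaving out each library.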

Additional observations from a re-analysis of the deposited data

How the results depend on the processing

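The start-site difference of -0.24 kept its sign under every alternative run, from -0.18 without siScram replicate 2 or with the median as pseudocount to -0.31 without both similar libraries. With 3 libraries against 3 no exact test could pass 0.05. The number of sites called as deposited was 0 and ranged from 0 to 19 when 1 library was left out. It was 15 without siScram replicate 1, 4 without siPcif1 replicate 1, 1 without siPcif1 replicate 2, 19 without siPcif1 replicate 3, 7 without both similar libraries and 15 when the replicate number entered as a block. After centring it was 0 in all of these. The start-gene count was 0 and ranged from 0 to 5 with 1 library left out (1 without siScram replicate 2, 5 without siScram replicate 3). The count against own internal sites ranged from 0 to 1 (1 without siScram replicate 2). The block left the start-site difference at -0.24 (exact sign-flip p = 0.25) and the start-gene count at 0. Genes lower at an unadjusted p of 0.05 ranged from 131 to 243 with 1 library left out, with 131, 139 and 134 without siPcif1 replicate 1, 2 and 3. Sites lower after centring ranged from 459 to 985 (459 without siPcif1 replicate 1), and higher from 272 to 627 (627 without siScram replicate 1). As deposited, lower sites ranged from 119 to 292 and higher from 201 to 1520, with 1520 without siScram replicate 2 and 925 without siPcif1 replicate 3. The deposited p-values gave 277 lower and 952 higher, and 135 and 419 when doubled. The difference between tables with and without ATRA was 0.034 over shared sites and 0.041 with the median as pseudocount. Of 380 values for 38 named sites under alternatives, 375 kept their sign and 5 did not, all at the PCIF1 site. That site was at 0.011 with the median as pseudocount and 0.15 as deposited, and between -0.15 and 0.16 with 1 library left out. The reads behind each RML are unknown, so no counting error could be given, and the cause of these shifts was not tested.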
